A study of Homo sapiens with 6 samples.

Results

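The genes described here are 10 feedback genes of the MAPK (mitogen-activated protein kinase) pathway: the phosphatase genes *DUSP4*, *DUSP5* and *DUSP6*, the Sprouty genes *SPRY1*, *SPRY2* and *SPRY4*, the Sprouty-related genes *SPRED1* and *SPRED2*, and the ETS factor genes *ETV4* and *ETV5*. They were taken by symbol from the RNA-seq table of normalized counts, and 10 of 10 were found among its 20347 genes. The table holds 6 libraries from PaTu8988t cells, an established human cell line of pancreatic ductal adenocarcinoma (PDAC), in 2 groups of 3. Control cells carried an unspecific guide RNA in the Lenti-CRISPR V2 plasmid, and *SAMD1* KO cells carried CRISPR/Cas9 edits in *SAMD1*, which encodes a repressor that binds CpG islands. Each *SAMD1* KO library came from a separate single-cell clone, so a clone's own history is part of its values. Puromycin selection and medium with fetal bovine serum were shared by both groups. Whether the 3 control replicates came from separate cultures was not given in the sources used here, so p-values measure the spread between these libraries only.

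In the MAPK pathway, growth factor receptors activate RAS, which switches on the kinases RAF, MEK and ERK in turn. Active ERK raises the transcription of genes that act back on the pathway. DUSP proteins remove phosphate from ERK, Sprouty and SPRED proteins dampen the signal at the level of receptors, RAS and RAF, and the ETS factors ETV4 and ETV5 carry ERK output to further genes. Transcripts of these feedback genes are widely read as a measure of ERK output.

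Among the 10 genes, *SPRY4* and *SPRY1* rose in *SAMD1* KO cells, 1.96-fold and 1.68-fold in their mean normalized counts. *ETV5* rose less, 1.28-fold, but more evenly. The phosphatase genes and *SPRED* genes did not pass the test, and *DUSP4* and *DUSP5* took values in the individual clones that lay on both sides of the control level. Calls used the study's cut-off, in which the log2 fold change exceeds 0.5 in size and p before adjustment is under 0.01, and were made with limma on log2(normalized count + 1). By this rule 2 of the 10 genes were called higher and 0 lower, beside 5.77% of all 12773 tested genes called higher, 2.08% called lower and 7.85% in either direction. With 10 genes, these counts are a description of the set. At a Benjamini-Hochberg adjusted p below 0.05 over all tested genes, 3 of the 10 were higher (*ETV5*, *SPRY1* and *SPRY4*) and 0 lower, beside 8.32% of all tested genes higher, 4.7% lower and 13% in either direction. *SPRY1* and *SPRY4* lay close to this threshold in limma. There, 1 of the 10 genes, *ETV5*, passed it with no filter on low counts or without any 1 control replicate. With a pseudocount of 0.1 or a mean of at least 50, 2 passed (*SPRY1* and *ETV5*). On recovered reads, the adjusted p of *SPRY1* and *SPRY4* was 0.0101 and 0.000187 in DESeq2, and 0.0484 and 0.0381 in edgeR. The median log2 fold change was 0.21 over the 10 genes and -0.0059 over all tested genes.

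The 6 libraries held from 35589477 to 45172216 reads, and the lowest count of any of the 10 genes was 95 reads, for *SPRY1*. *SAMD1* itself had normalized counts of 2231 to 2382 in control cells and 824.8 to 1082 in *SAMD1* KO clones (log2 fold change -1.32, standard error (SE) 0.10, limma adjusted p = 0.000724). Of 5 epithelial marker genes, *KRT8*, *KRT18* and *EPCAM* had control means of 34191, 29567 and 537.3 normalized counts. *KRT7* was low, with means of 30.2 in control and 84.2 in *SAMD1* KO cells, and *KRT19* had 0 reads in each library. The summed epithelial markers ran from 62681 to 65891 normalized counts in control and from 67617 to 108553 in *SAMD1* KO cells, and the part of this shift in the results was not tested. Leukocyte, endothelial and fibroblast markers summed to at most 32.4, 98.5 and 4.32 normalized counts in any library. In bulk RNA, fewer cells with a transcript and less transcript per cell cannot be told apart.

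**Figure D1:**
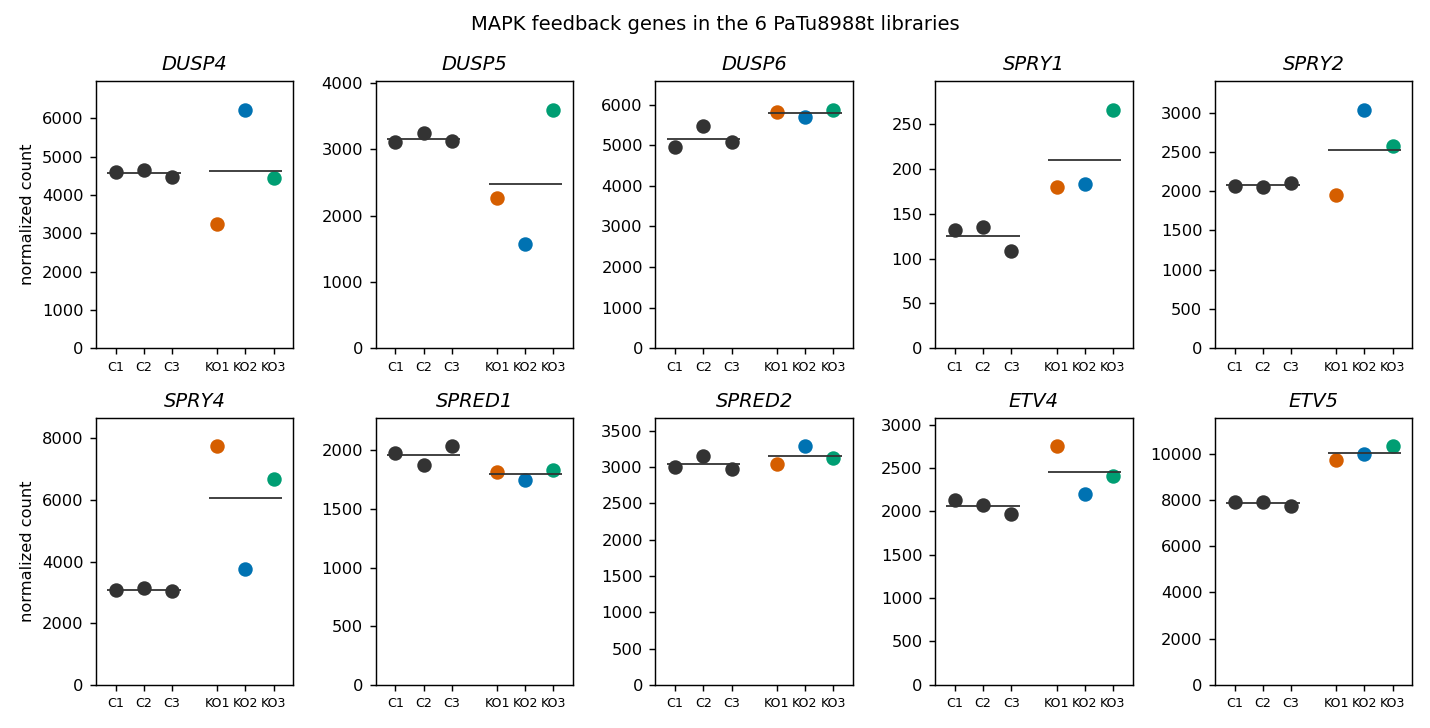
Normalized counts (y axis, from 0) of each of the 10 genes in control replicates 1 to 3 (C1 to C3, dark grey points) and *SAMD1* KO clones 1 to 3 (KO1 to KO3, coloured points), with a line at each group mean. The clones spread widely for *DUSP4*, *DUSP5*, *SPRY2* and *SPRY4*.

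The Sprouty genes encode inhibitors of receptor tyrosine kinase signalling that are themselves induced by ERK. Promoter windows of all 3 were found in a RefSeq table (GRCh38.p14), and they are shown because 2 of the 3 genes were called and because the study describes SAMD1 as binding GCGC at CpG island promoters. Each window is the 250 bases before the start that the table gives, written 5′ to 3′ on the strand of the gene. The *SPRY4* window is chr5:142324248-142324497 (minus strand), the *SPRY1* window chr4:123396545-123396794 (plus strand) and the *SPRY2* window chr13:80341127-80341376 (minus strand). The *SPRY1* and *SPRY2* windows border the annotated start of their genes. The *SPRY4* window lies inside the annotated extent of *SPRY4* (142310427 to 142326455), so it does not cover the outermost start of that gene. Capitals mark GCGC.
SPRY4: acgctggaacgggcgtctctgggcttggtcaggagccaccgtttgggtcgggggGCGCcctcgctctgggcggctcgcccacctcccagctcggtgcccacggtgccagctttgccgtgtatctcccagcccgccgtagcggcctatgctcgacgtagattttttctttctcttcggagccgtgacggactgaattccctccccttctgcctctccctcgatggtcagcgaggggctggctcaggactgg
SPRY1: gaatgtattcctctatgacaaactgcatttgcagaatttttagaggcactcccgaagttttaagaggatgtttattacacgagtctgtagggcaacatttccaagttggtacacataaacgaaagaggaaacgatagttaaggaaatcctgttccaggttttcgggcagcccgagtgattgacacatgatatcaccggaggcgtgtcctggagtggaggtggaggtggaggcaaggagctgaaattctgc
SPRY2: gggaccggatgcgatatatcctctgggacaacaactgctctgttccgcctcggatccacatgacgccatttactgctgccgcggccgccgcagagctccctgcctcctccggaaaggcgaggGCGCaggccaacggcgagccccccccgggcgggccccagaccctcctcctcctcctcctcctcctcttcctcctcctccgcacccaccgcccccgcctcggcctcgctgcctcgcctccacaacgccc
The window of *SPRY4* held 1 GCGC and 22 CG dinucleotides, and that of *SPRY2* 1 GCGC and 23 CG. The *SPRY1* window was poorer in both, with 0 GCGC and 8 CG. Of 15166 windows of the same length for genes in the file, 67.5% held GCGC, which reads the same on both strands, and the median number of CG dinucleotides was 18. The ETS core CCGGAA, searched on both strands, was found 1 time in the *SPRY2* window and 0 times in those of *SPRY4* and *SPRY1*, beside 19.7% of all windows. Windows were also found for *DUSP6*, *SPRED1* and *SPRED2*, with 0, 3 and 1 GCGC. These matches describe letters in a window and were not tested for binding.

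*SPRY4* (chromosome 5, 142310427 to 142326455, GENCODE 44 on GRCh38) had the largest log2 fold change of the 10 genes. *SPRY4-AS1*, a noncoding gene on the opposite strand, overlaps it and was not among the genes counted. The normalized counts of *SPRY4* were 3082, 3142 and 3047 in control replicates 1 to 3 and 7743, 3748 and 6678 in *SAMD1* KO clones 1 to 3. All 3 clones were above all 3 controls, clone 2 by far the least. The mean rose from 3090.1 ± 47.9 to 6057 ± 2069 (SD, n = 3 each), and the log2 fold change was 0.91 (SE 0.24, 95% interval 0.34 to 1.47, limma adjusted p = 0.0498). Relative to the control mean, clone 1 was at 2.51-fold, clone 2 at 1.21-fold and clone 3 at 2.16-fold. Tested genes around *SPRY4*, the 20 nearest on each side, also stood lower in clone 2. Their median log2 difference from the control mean was -0.056, -0.50 and 0.038 in clones 1 to 3. A neighbour median of at least 0.5 in size was seen in clone 2 for 3.06% of tested genes. After the neighbour median was removed from each library, the clones stood at 1.38, 0.78 and 1.07 above the control mean on the log2 scale, and the log2 fold change was 1.08 (SE 0.13, limma adjusted p = 0.00152). Without clone 2 it was 1.22 (adjusted p = 0.00055), while leaving out clone 1, clone 3 or any 1 control replicate ended the call (log2 fold change 0.70 to 0.92, limma adjusted p 0.0693 to 0.163).

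*SPRY1* (chromosome 4, 123396795 to 123403760) was the lowest of the 10 genes. Control replicates 1 to 3 had 131.5, 135.0 and 108.8 normalized counts and clones 1 to 3 had 180.0, 183.2 and 266.2, which correspond to 95 to 138 reads and 182 to 296 reads. Again no clone overlapped the controls, and clone 3 was highest. The mean rose from 125.1 ± 14.2 to 209.8 ± 48.9 (SD, n = 3 each), and the log2 fold change was 0.72 (SE 0.19, 95% interval 0.28 to 1.16, limma adjusted p = 0.0464). The medians of its neighbours were between -0.13 and -0.025 in the 3 clones. Leaving out control replicate 1, 2 or 3 ended its call (limma adjusted p = 0.143, 0.123 and 0.177), with log2 fold changes of 0.76, 0.78 and 0.63. Without clone 3, the clone with the highest value, the log2 fold change was 0.54 and the call remained, with a limma adjusted p of 0.0549.

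*SPRY2* (chromosome 13, 80335976 to 80341126) had 2064, 2050 and 2108 normalized counts in control cells and 1953, 3039 and 2571 in clones 1 to 3. Clone 1 lay below all controls and clones 2 and 3 above them, so the groups overlapped. The log2 fold change of 0.26 did not pass (SE 0.15, 95% interval -0.08 to 0.60, limma adjusted p = 0.281). Without clone 1 it was 0.43 (limma adjusted p = 0.0143), still under the fold-change cut-off. Without clone 2 it was 0.11 (limma adjusted p = 0.543), and without clone 3 it was 0.23 (limma adjusted p = 0.393). *SPRY4* and *SPRY2* thus ranked the clones in opposite order, with clone 1 highest for *SPRY4* and lowest for *SPRY2*.

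**Figure D2:**
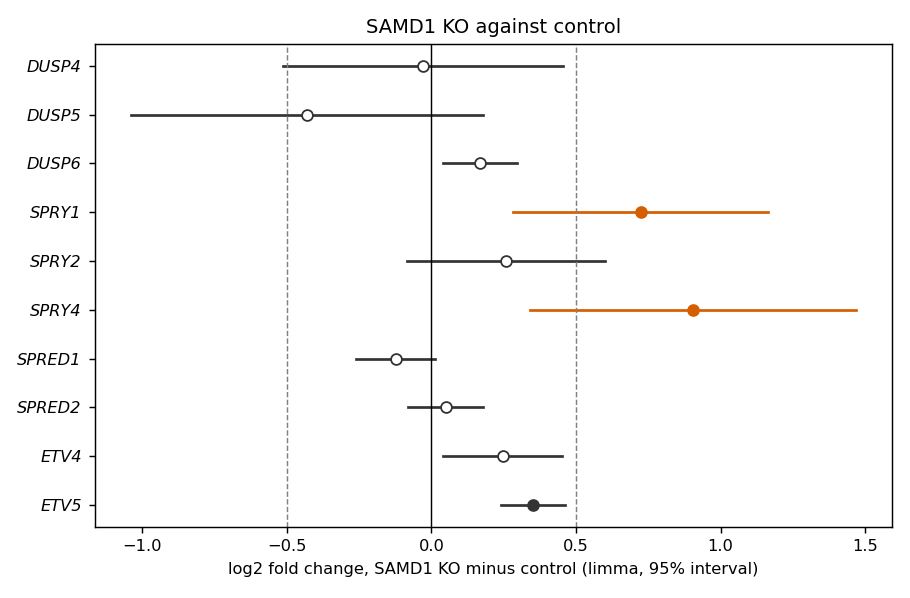
Log2 fold change (x axis, *SAMD1* KO minus control) for each gene from limma, with its 95% interval. Filled points have an adjusted p below 0.05, orange marks a called gene, and dashed lines mark the cut-off of 0.5. *SPRY4* at 0.91 and *SPRY1* at 0.72 lie beyond the cut-off, *ETV5* at 0.35 has a narrow interval above 0, and those of *DUSP4* and *DUSP5* are wide and include 0.

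*ETV5* and *ETV4* encode ETS factors of the PEA3 subfamily, which act downstream of ERK and of FGF receptors. *ETV5* (chromosome 3, 186046314 to 186110318) had the most reads of the 10 genes and the smallest p. Control replicates 1 to 3 had 7932, 7911 and 7728 normalized counts and clones 1 to 3 had 9739, 10000.2 and 10320.4, with all clones above all controls and little spread within either group. The mean was 7857 ± 112 in control and 10020 ± 291 in the clones (SD, n = 3 each), which gave a log2 fold change of 0.35 (SE 0.048, 95% interval 0.24 to 0.46, limma adjusted p = 0.00486). This rise of 27.5% was under the cut-off of 0.5, and its adjusted p was below 0.05 in 6 of 6 fits that left out 1 library (0.00396 to 0.0425). The annotated extent of *ETV5* overlaps that of *DGKG* on the same strand, whose mean normalized count was 427.3 in control cells and 412.2 in the clones. It also overlaps *ETV5-AS1*, a noncoding gene on the opposite strand that was not among the genes counted.

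*ETV4* (chromosome 17, 43527844 to 43579620) had 2129, 2078 and 1971 normalized counts in control cells and 2749, 2194 and 2411 in clones 1 to 3. The clones did not overlap the controls, with clone 2 only just above them. The log2 fold change of 0.25 did not pass over all genes (SE 0.088, 95% interval 0.039 to 0.45, limma adjusted p = 0.114). Without clone 2 it was 0.32 (limma adjusted p = 0.0382), and without clone 1 it was 0.16 (limma adjusted p = 0.137). Of the 6 fits that left out 1 library, 1 had an adjusted p below 0.05. *DHX8* overlaps *ETV4* on the opposite strand and had means of 2849.8 and 2848.5 normalized counts in control and *SAMD1* KO cells.

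The phosphatase DUSP6 acts on ERK in the cytoplasm, and its transcript is widely used as a readout of ERK activity. *DUSP6* (chromosome 12, 89347235 to 89352501) had 4964, 5471 and 5073 normalized counts in control cells and 5819, 5702 and 5882 in the clones. The clones were alike and all above the controls, by a small margin. The log2 fold change was 0.17 (SE 0.055, 95% interval 0.039 to 0.30) and did not pass over all genes (limma adjusted p = 0.0895). The interval leaves room for a rise of up to 0.30 on the log2 scale and not for a change past the cut-off.

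DUSP4 and DUSP5 are phosphatases of the nucleus. *DUSP4* (chromosome 8, 29333064 to 29350684) had 4590.3, 4657 and 4463 normalized counts in control cells and 3243, 6230 and 4444 in clones 1 to 3. Clone 1 lay below all controls, clone 2 above all of them, and clone 3 next to them, so that the group means were 4570.1 ± 98.8 and 4639 ± 1503 (SD, n = 3 each). The fit gave a log2 fold change of -0.029 (SE 0.21, limma adjusted p = 0.942), and the 95% interval from -0.51 to 0.45 reaches changes of the size of the cut-off. The neighbour medians of *DUSP4* were small in all clones, between -0.09 and 0.020 on the log2 scale. Its sign depended on the setting, with 0.028 in edgeR and 0.023 in DESeq2.

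*DUSP5* (chromosome 10, 110497907 to 110511533) had 3111, 3247 and 3119 normalized counts in control cells and 2269, 1574 and 3600 in clones 1 to 3. Clones 1 and 2 were below all controls and clone 3 was above them. The log2 fold change of -0.43 had a SE of 0.26 and a 95% interval from -1.04 to 0.18, and did not pass (limma adjusted p = 0.311). Neighbouring genes moved in the same directions, with medians of -0.23, -0.29 and 0.20 in clones 1 to 3, while *DUSP5* itself was at 0.718-fold, 0.498-fold and 1.14-fold of the control mean. After the neighbour median was removed, its log2 differences from the control mean were -0.24, -0.72 and -0.0080. In at least 1 clone, 21.5% of tested genes had a neighbour median of 0.2 or more in size. Without clone 3 the log2 fold change was -0.74 (SE 0.15, limma adjusted p = 0.0211), and *DUSP5* was then called lower. Without clone 2 it was -0.14 (limma adjusted p = 0.619).

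**Figure D3:**
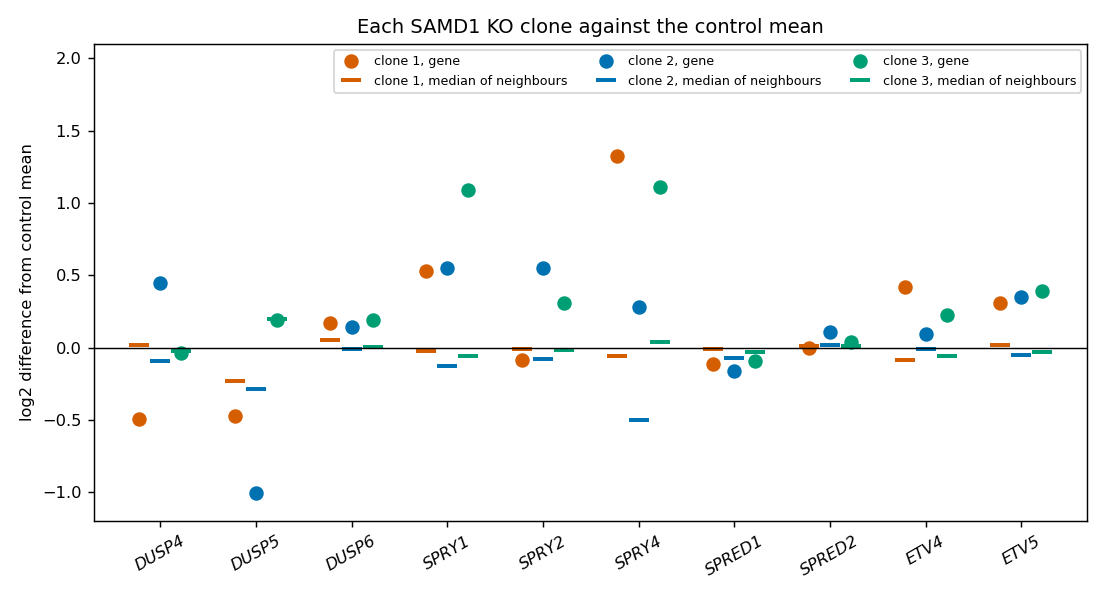
Log2 difference from the control mean (y axis) in *SAMD1* KO clones 1, 2 and 3 for each gene (points) and for the median of the 20 tested genes on each side of it (short horizontal marks). For *SPRY4* the neighbours were at -0.50 in clone 2, for *DUSP5* they were at -0.23, -0.29 and 0.20, and for the other 8 genes they lay between -0.13 and 0.050.

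SPRED1 and SPRED2 bind neurofibromin, the RAS GTPase-activating protein, and bring it to the membrane. *SPRED1* (chromosome 15, 38252836 to 38357249) had 1974, 1873 and 2033 normalized counts in control cells and 1812, 1749 and 1835 in the clones. All 3 clones lay below all controls, and the mean differed by -8.24%. The log2 fold change of -0.12 (SE 0.058, 95% interval -0.26 to 0.013) did not pass (limma adjusted p = 0.207). *SPRED2* (chromosome 2, 65310851 to 65432637) had 3003, 3153 and 2979 in control cells and 3041, 3286 and 3130.1 in the clones, and the groups overlapped. Its log2 fold change was 0.050 (95% interval -0.080 to 0.18, limma adjusted p = 0.593), so a change past the cut-off lies outside the interval of both *SPRED* genes.

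Across the 10 genes, the groups did not overlap in 6 (5 with the clones higher and 1 with the clones lower), beside 19.2% of all tested genes with the clones higher, 18.6% with the clones lower and 37.8% in all. With 3 against 3 libraries the exact permutation test, two-sided, gave p = 0.1 for each of these 6, the smallest value it can give. The ratio of the highest to the lowest library was larger among clones than among control replicates for 8 of the 10 genes, and smaller for *DUSP6* and *SPRED1*. The highest clone was at least 1.5 times the lowest for 4 of the 10 genes (*DUSP5* at 2.29, *SPRY4* at 2.07, *DUSP4* at 1.92 and *SPRY2* at 1.56), and 0 of the 10 reached this among the control replicates. Among the 10864 tested genes with a mean of at least 100 normalized counts, 13.7% reached it among clones and 0.258% among controls. The median ratio over these 10864 genes was 1.19 among clones and 1.07 among controls, so a wider range among clones was not particular to the 10 genes. Each clone is a single library, so differences between clones have no replicate check. The limma fit pooled the spread of both groups for each gene. Where the clones spread more than the controls, its SE, intervals and p-values therefore do not measure the spread between clones alone. By the root mean square difference of centred log2 values over the 6 libraries, *DUSP4* and *SPRY2* were each other's closest gene of the set (0.17), and *ETV4*, *ETV5* and *SPRED2* were closest to *DUSP6* (0.11, 0.10 and 0.076). *SPRY4* was closest to *SPRY1*, at the larger distance of 0.34. This distance depends on the size of a change as well as its pattern, so genes that changed little lie close together. *SPRED2*, for example, was highest in clone 2, where *DUSP6* was lowest of the 3 clones. Outside the set, the genes most like *DUSP6* among 11443 with a mean of at least 50 were *SSH1* (0.021), *NBEA* (0.023) and *ATP11A* (0.028), with log2 fold changes of 0.17, 0.20 and 0.12.

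To compare levels between genes, normalized counts were divided by the summed exon length of each gene in kb (GENCODE 44), which counts exons of all its transcripts. On this scale *ETV5* (1361 ± 19.3), *DUSP6* (1340 ± 69.2) and *DUSP5* (1246 ± 30.1; SD, n = 3) were highest in control cells. *SPRY2* (645.4), *DUSP4* (628.4), *ETV4* (585.9), *SPRED2* (553.2) and *SPRY4* (471.4) followed, then *SPRED1* (252.9) and *SPRY1* (31.6). Neighbours in this order overlapped between libraries for *ETV5* and *DUSP6*, for *SPRY2* and *DUSP4*, and for *ETV4* and *SPRED2*. In *SAMD1* KO cells *ETV5* was at 1736 ± 50.4 and *DUSP6* at 1503 ± 23.6 per kb and no longer overlapped, and *SPRY4* moved above *SPRY2*, *DUSP4*, *ETV4* and *SPRED2* by its mean, at 924.0 ± 315.7, although its clones overlapped those of all 4 and of *DUSP5*. Summed per kb, the 3 Sprouty genes gave 1146 to 1151 in the control libraries and 1835, 1564 and 1886 in clones 1 to 3. This sum was mostly *SPRY2* and *SPRY4*, and in clone 1 *SPRY4* was at 1181 while *SPRY2*, at 607.8, lay below all controls. The 3 phosphatase genes gave 3145 to 3339 in control and 2849, 2955 and 3555 in the clones, which lie on both sides of the controls. The *SPRED* genes gave 800.2 to 814.5 and 786.1 to 822.6, also overlapping. The sum of *ETV4* and *ETV5* was 1899.6 to 1979.5 in control and 2469, 2357 and 2474 in the clones, without overlap.

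**Figure D4:**
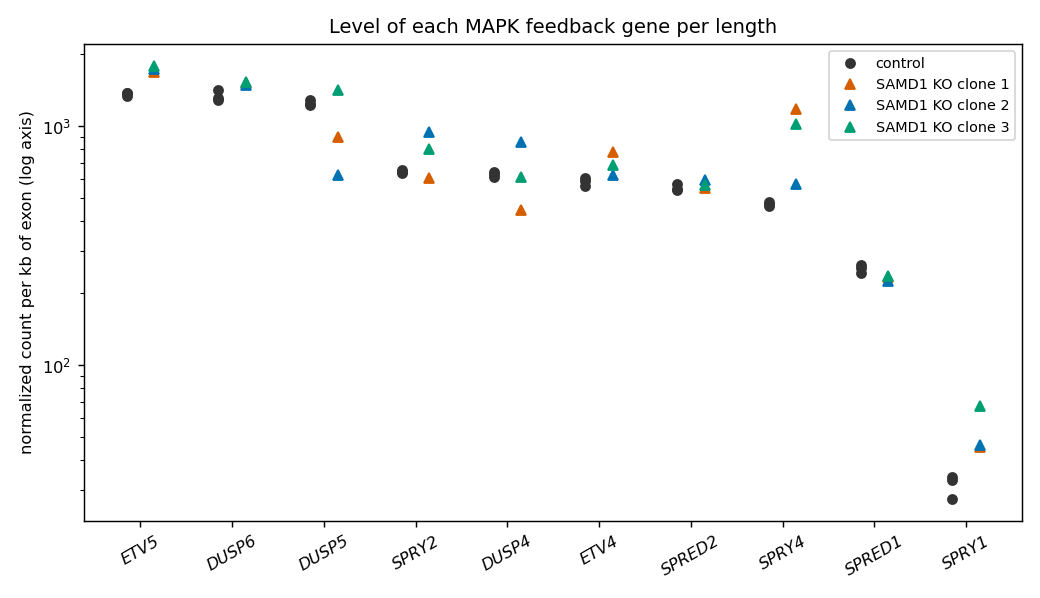
Normalized count per kb of exon (y axis, log scale) of each gene in the 3 control replicates (dark grey circles) and the 3 *SAMD1* KO clones (coloured triangles), ordered by the control mean. *ETV5*, *DUSP6* and *DUSP5* lead at over 1200 in control cells, and *SPRY1* lies lowest at 31.6.

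The rest of the pathway was followed in 5 hand-written lists of 43 genes, all of which were tested. Of these, 2 were called higher and 2 lower, beside the 5.77% and 2.08% of all tested genes, and the rest were not called. At an unadjusted limma p below 0.05, 9 of the 43 were higher and 9 lower, beside 16.1% of all tested genes higher and 13.5% lower. The median of their log2 fold changes was 0.027. The core of the cascade had 0 of 11 genes called (0 higher and 0 lower, with 2 higher and 1 lower at an unadjusted limma p below 0.05). Its member with the smallest p was the RAF kinase gene *ARAF*, from 3014 ± 153 to 3985 ± 218 normalized counts (SD, n = 3 each; log2 fold change 0.40, limma adjusted p = 0.00865). It lies on the X chromosome among genes that were also higher in the clones, and removing the neighbour medians gave a log2 fold change of -0.0064. *KSR1*, a scaffold for RAF and MEK that was chosen after its values were seen, was the other gene of this list with an adjusted p below 0.05 (log2 fold change 0.35, limma adjusted p = 0.0282). The adaptors and exchange factors had 0 of 7 called (2 higher and 4 lower at an unadjusted limma p below 0.05). *PTPN11*, which encodes the phosphatase SHP2, was at a log2 fold change of -0.25 (limma adjusted p = 0.0149). Without any 1 control replicate, its limma adjusted p was 0.0824 to 0.0976.

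Among the 8 RAS GTPase-activating proteins, which switch RAS off, *RASAL2* was called lower. It went from 2919 ± 158 normalized counts down to 1772 ± 276 (SD, n = 3 each; log2 fold change -0.73, SE 0.11, limma adjusted p = 0.00702), and remained called in 6 of 6 fits that left out 1 library. In the list of other MAPK phosphatases and paralogs, 2 of 9 were called higher and 1 lower. *ETV1*, the PEA3 paralog of *ETV4* and *ETV5*, rose from 894.5 ± 37.9 to 1495 ± 220.3 (log2 fold change 0.73, limma adjusted p = 0.00653). *DUSP16*, a phosphatase that prefers the stress kinases JNK and p38, rose from 1118 ± 12.6 to 1771 ± 199.5 (log2 fold change 0.66, limma adjusted p = 0.00499). *DUSP1*, an early-induced phosphatase of all 3 MAPK classes, fell from 1396 ± 19.5 to 795.1 ± 166 (log2 fold change -0.83, limma adjusted p = 0.0139). It remained called in 6 of 6 fits that left out 1 library, but without any 1 control replicate the limma adjusted p was 0.0657 to 0.0733. Its neighbour median was -0.53 in clone 2, where *DUSP1* was lowest, and removing the neighbour medians gave a log2 fold change of -0.60. Other ERK output genes had 0 of 8 called (2 higher and 0 lower at an unadjusted limma p below 0.05). Among them *PHLDA1* had the smallest p, with 9403 ± 144 and 12677 ± 746 normalized counts (log2 fold change 0.43, limma adjusted p = 0.00455).

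**Figure D5:**
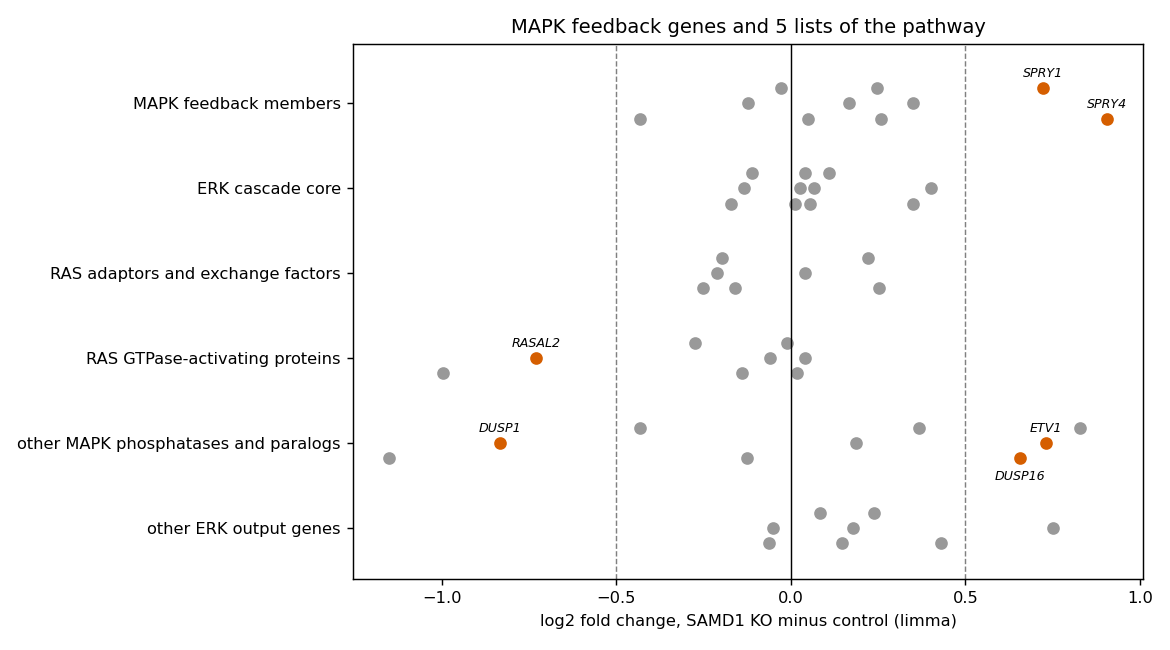
Log2 fold change (x axis, *SAMD1* KO minus control) for the 10 feedback genes and the 43 genes of the 5 pathway lists, 1 point a gene, with called genes in orange and named and the cut-off of 0.5 as dashed lines. Called genes are *SPRY1* and *SPRY4* among the feedback genes, and *RASAL2*, *DUSP1*, *DUSP16* and *ETV1* among the others.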

How the data were processed

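The authors aligned reads to the human transcriptome (GenCode 43, hg38) with RNA-Star and normalized them with DESeq2, and the submitters' processing notes name featureCounts. The strand setting was not given in the sources used here. The deposited signal is a normalized count: reads over the library's size factor. Of the values in every library, 100% were whole multiples of 1 step (within 0.05 reads), so whole reads were recovered. A second deposited table holds the authors' fold changes and p-values and was not used. No sample column was left unused (0 columns).

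A gene was tested where its normalized counts averaged 10 or more across libraries (12773 genes). The test was limma 3.58.1 (trended eBayes, R 4.3.3) of log2(normalized count + 1), with Benjamini-Hochberg adjustment over all of them. All tests were two-sided. Depth was 35589477 to 45172216 reads per library. The study used DESeq2 on counts, which was run here as an alternative on the recovered reads (DESeq2 1.42.0), as was edgeR 4.0.16. The other alternatives were pseudocounts of 0.1 and 10, no filter, a mean of at least 50, upper-quartile scaling (75th percentile), a block for replicate number, each library left out in turn, an adjusted p below 0.05 in the cut-off, and removal of the median shift of 20 tested genes on each side. Positions and exon lengths are from GENCODE 44 and promoters from RefSeq, both on GRCh38. Of the 10 genes, 6 matched the promoter table.

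The genes and lists were chosen with earlier results of these data known. Named are the 10 genes, *SAMD1*, of each pathway list every called gene or otherwise the one with the smallest p, and the genes closest to *DUSP6*. *KSR1* was named outside this rule, after its values were seen. The fits were tested on simulated data. Python 3.11.15 was used for the other steps.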

Additional observations from a re-analysis of the deposited data

How the results depend on the processing

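*SPRY1* had the fewest reads of the 10 genes, and its values carry the largest relative counting error. Over the 10 genes and their alternatives, 136 values kept their direction and their side of the cut-off, 9 lost the call, 1 gained it and 4 changed sign. The 9 lost calls were all of the called genes. *SPRY1* lost its call in 4 alternatives and kept it in 11, and *SPRY4* lost its call in 5 and kept it in 10. The sign of *DUSP4* turned in edgeR (0.028), in DESeq2 (0.023), without *SAMD1* KO clone 1 (0.20) and after regional medians were removed (0.0011), and its log2 fold change ran from -0.27 to 0.20 with 1 library left out; the cause was not tested. That of *ARAF* turned to -0.0064 after regional medians were removed, which takes away a shift shared with its neighbours. The count of the 10 genes called higher was 2, and 0 to 2 with 1 library left out, where fewer samples were tested; 0 remained without control replicate 1, 2 or 3, and 1 without *SAMD1* KO clone 1 or 3. The count called lower was 0, and 0 to 1 with 1 library left out, where the 1 was *DUSP5* without clone 3. Over all tested genes, 568 to 862 were called higher and 180 to 370 lower with 1 library left out. In the 43 pathway genes, 2 to 3 were called higher and 2 to 3 lower.

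Control and *SAMD1* KO libraries share replicate numbers. Same-numbered libraries had correlations of their deviations from the group means of 0.039, 0.13 and 0.032, so the numbers were not taken to pair them. With the replicate number as a block, 1 of the 10 genes was called higher, since *SPRY1* had an unadjusted p of 0.0154 (limma adjusted p = 0.0917), and 1 of the 10, *ETV5*, had an adjusted p below 0.05; 725 genes were then called higher and 259 lower over all genes.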
